A study of Mus musculus with 8 samples.

Results

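The genes described here make nitric oxide, supply or consume its substrate arginine, or make itaconate, in dendritic cells stimulated with CpG DNA. They are Nos2, Gch1, Slc7a2, Ass1, Arg2 and Irg1 (the older name of Acod1), chosen by name from the 25006 gene names of the deposited table, and all 6 passed the filter on low values. Bone marrow of C57BL/6 mice was cultured with GM-CSF and IL-4 to give dendritic cells (BMDCs), and mRNA was sequenced from the whole culture. The control libraries received no CpG and are labelled 1 h, and the other libraries were taken after 1, 3 or 8 h with 0.1 µM CpG oligonucleotide. Each condition has 1 library of RelB-DBDB cells and 1 of IFNAR;RelB-DBDB cells, so there are 8 libraries and no replicate within a genotype and condition. The first genotype carries the RelB-DBDB alteration of the NF-κB subunit RelB, an abbreviation that the labels do not expand. The second carries the same alteration and, per the design text, a knockout of IFNAR, the receptor of type I interferon. Both genotypes share the RelB alteration, and cells with unaltered RelB were not analysed here. The labels give neither the age of the mice nor how many animals or cultures went into a library.

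Inducible nitric oxide synthase, the product of Nos2, turns arginine and oxygen into nitric oxide and citrulline. The enzyme needs tetrahydrobiopterin, whose first and rate-limiting step is catalysed by the Gch1 product, GTP cyclohydrolase. Arginine enters the cell through cationic amino acid carriers such as that encoded by Slc7a2, and argininosuccinate synthase (Ass1) starts its regeneration from citrulline, while the arginases Arg1 (cytosolic) and Arg2 (mitochondrial) split it into ornithine and urea. Irg1 encodes the mitochondrial enzyme that makes itaconate from the citric acid cycle intermediate cis-aconitate. In mouse macrophages and dendritic cells, Nos2 and Irg1 are classical genes of the response to Toll-like receptor ligands and interferon.

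The libraries held between 3711818 and 37221530 reads, both extremes being 8 h libraries (IFNAR;RelB-DBDB and RelB-DBDB respectively). Levels are read counts scaled to the library total (CPM), and intervals are exact 95% Poisson intervals that cover counting error only. The RelB-DBDB 8 h library stood apart, with 6.26% of its reads from mitochondrially encoded genes against 1.74% to 2.41% in the other 7 libraries. Its TMM scaling factor was 0.780 against 0.971 to 1.10 in the others, so its levels rise relative to the other libraries when this factor is applied. The dendritic cell markers were present in all libraries, with a summed level of 7410 to 12894 CPM, although Cd209a, a marker of monocyte-derived dendritic cells, was at 0 in 3 of the 8 libraries. Ifnar1 transcripts were detected in both genotypes, at 102 to 127 CPM in the former and 56.1 to 102 CPM in IFNAR;RelB-DBDB libraries. The log2 difference was −0.63 ± 0.129 (SE, limma adjusted p = 0.0340), and a knockout can leave transcripts of the gene. This call was lost with no filter on low values (limma adjusted p = 0.0682) and without any of the 6 control, 1 h and 3 h libraries (largest limma adjusted p = 0.187). The Relb transcript ranged from 92.5 to 197 CPM across the RelB-DBDB libraries and from 115 to 206 CPM across the others. In such bulk libraries, fewer cells that express a gene and less RNA per cell cannot be told apart.

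On mm10, with GENCODE annotation, Nos2 lies at chr11:78920787-78960254 on the plus strand and Gch1 at chr14:47153895-47189413 on the minus strand. Slc7a2 lies at chr8:40862396-40922308, Ass1 at chr2:31470207-31520672, Arg2 at chr12:79130777-79156301 and Irg1 at chr14:103046977-103056573, all on the plus strand. Each value counts reads over the gene as the authors assigned them.

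CpG was followed by higher levels of 5 of the 6 genes within 8 h. Irg1, Nos2, Gch1 and Slc7a2 passed the test described below by 3 h and Ass1 by 8 h. Ass1 was also above control at 3 h in both genotypes, so its later call is not a tested difference in timing. Arg2, the mitochondrial arginase, did not pass at any time. From control to 8 h, the ratios within a genotype ran from 1.93 (Ass1 in IFNAR;RelB-DBDB) to 32.2 (Irg1 in RelB-DBDB) among these 5 genes. Changes over both genotypes were tested with limma on log2(CPM + 1) in an additive model of genotype and condition across 12297 genes, with Benjamini-Hochberg adjustment and a threshold of 0.05. With 1 library per genotype and condition, the error in this model comes from how far the genotypes differ in their response and from variation between libraries together. All comparisons with control use the same 2 control libraries. Neither is labelled 3 h or 8 h, so at these times the effects of CpG and of longer culture cannot be told apart.

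Nos2 stood at 228, 231, 653 and 1249 CPM in the RelB-DBDB control, 1 h, 3 h and 8 h libraries. In IFNAR;RelB-DBDB the corresponding levels of this synthase were 139.6, 140.1, 407 and 421 CPM. Both genotypes were flat over the first hour and both 3 h libraries lay above every control and 1 h library. From control to 3 h the increase was 2.86-fold in RelB-DBDB (95% interval 2.73 to 3.01) and 2.92-fold in IFNAR;RelB-DBDB (2.74 to 3.11). The courses then parted, as the level at 8 h was 1.91 times that at 3 h in RelB-DBDB (1.86 to 1.97) and 1.03 times in IFNAR;RelB-DBDB (0.969 to 1.10). Over both genotypes, the log2 change against control was 0.01 ± 0.231 at 1 h (SE), 1.53 ± 0.231 at 3 h (limma adjusted p = 0.0121) and 2.02 ± 0.231 at 8 h (limma adjusted p = 0.00237).

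Gch1, which provides the cofactor, ran at a lower level, and its CPM at 8 h was close to that at 3 h. Its levels in RelB-DBDB were 22.9, 22.7, 53.0 and 51.7 CPM in the control, 1 h, 3 h and 8 h libraries. In IFNAR;RelB-DBDB they were 19.0, 19.7, 36.2 and 39.9 CPM. The 3 h and 8 h libraries of each genotype lay above all control and 1 h libraries of both, with no overlap. The 8 h to 3 h ratio was 0.975 in RelB-DBDB (0.880 to 1.08) and 1.10 in IFNAR;RelB-DBDB (0.883 to 1.37), intervals that both include 1. In RelB-DBDB this ratio was 1.21 with TMM and 1.18 with median-ratio factors, so a level course there depends on the scaling. The log2 change was 1.03 ± 0.167 at 3 h (SE, limma adjusted p = 0.0149) and 1.08 ± 0.167 at 8 h (limma adjusted p = 0.00656). Gch1 overlaps the processed pseudogenes Gm49134 and Gm18811 in the annotation, and how reads shared with them were counted is not given in the sources used here.

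**Figure D1:**
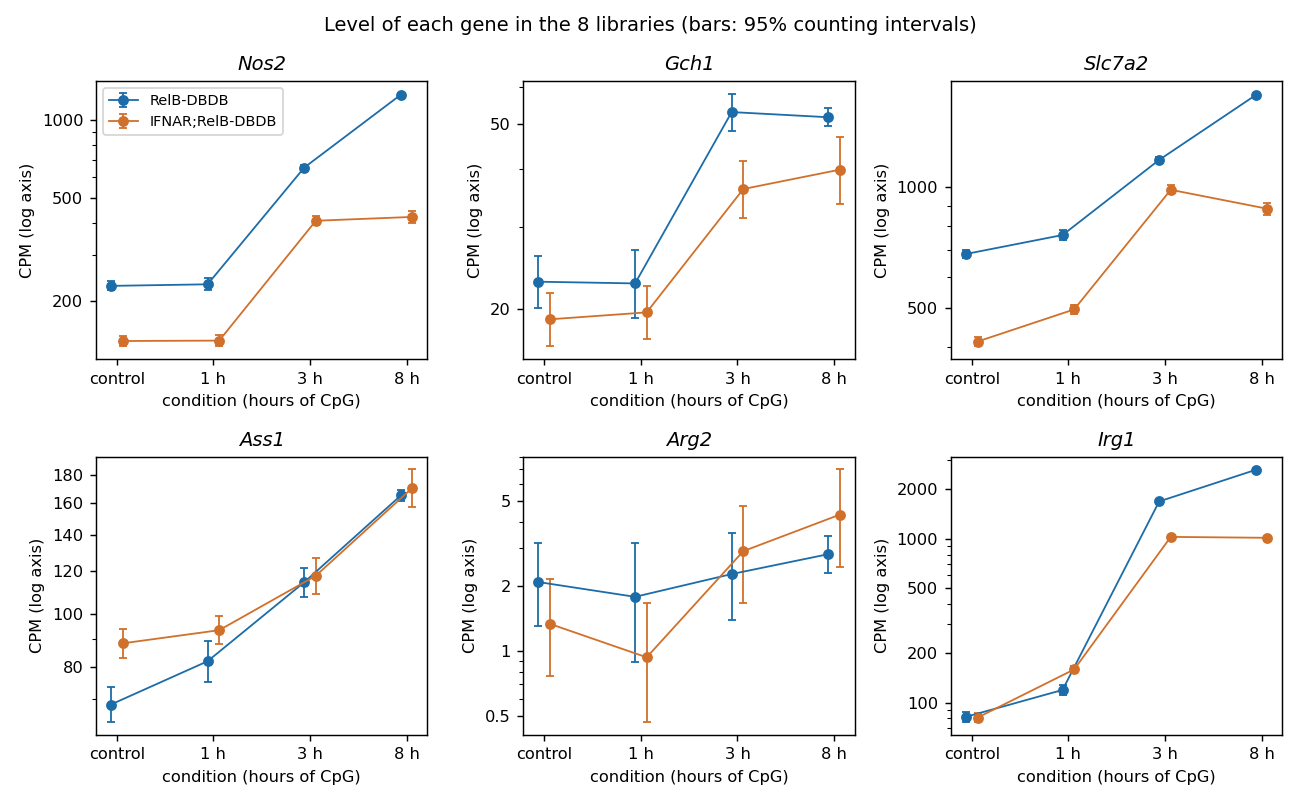
CPM (log axis) of the 6 genes in each of the 8 libraries by condition, with RelB-DBDB in blue and IFNAR;RelB-DBDB in orange; points are single libraries and bars are 95% counting intervals. Nos2 and Slc7a2 differ between the genotypes from the control on, and Nos2, Slc7a2 and Irg1 differ most at 8 h. The Ass1 courses meet at 165 and 171 CPM, and the Arg2 intervals overlap throughout the course.

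Slc7a2, an arginine carrier of macrophages that is known as CAT2, was already abundant without CpG. Its levels in RelB-DBDB were 683, 761, 1169.9 and 1696 CPM in the control, 1 h, 3 h and 8 h libraries. In IFNAR;RelB-DBDB they were 414, 497, 986 and 884 CPM. Every RelB-DBDB library exceeded the IFNAR;RelB-DBDB library of the same condition. The 8 h to 3 h ratio of the carrier was 1.45 in RelB-DBDB (1.42 to 1.48) and 0.897 in IFNAR;RelB-DBDB (0.859 to 0.937). The log2 change over both genotypes was 1.01 ± 0.178 at 3 h (SE, limma adjusted p = 0.0196) and 1.20 ± 0.178 at 8 h (limma adjusted p = 0.00584). With no filter on low values the 3 h call was lost (limma adjusted p = 0.0615). Gm26584, a long noncoding RNA gene, overlaps Slc7a2 on the opposite strand, and the sources used here do not say whether counting used strand.

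Ass1, the synthase that joins citrulline and aspartate, passed the test at 8 h, narrowly missed it at 3 h and had nearly the same 8 h level in both genotypes. Its levels were 68.3, 82.0, 114 and 165 CPM in the RelB-DBDB control, 1 h, 3 h and 8 h libraries. They were 88.4, 93.5, 118 and 171 CPM in IFNAR;RelB-DBDB. From control to 3 h the increase was 1.68-fold in RelB-DBDB (1.52 to 1.85) and 1.33-fold in IFNAR;RelB-DBDB (1.20 to 1.47). The step from 3 h to 8 h was 1.44-fold in RelB-DBDB (1.35 to 1.54) and 1.45-fold in IFNAR;RelB-DBDB (1.30 to 1.62). Over both genotypes, the log2 change was 0.57 ± 0.143 at 3 h (SE, limma adjusted p = 0.0592), which missed the threshold, and 1.10 ± 0.143 at 8 h (limma adjusted p = 0.00376). With median-ratio scaling factors the 3 h change passed (limma adjusted p = 0.0462).

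Arg2 was close to the detection limit, with 11 to 105 reads in each library. Its levels were 2.09, 1.79, 2.28 and 2.82 CPM in the RelB-DBDB control, 1 h, 3 h and 8 h libraries. In IFNAR;RelB-DBDB they were 1.34, 0.934, 2.91 and 4.31 CPM. The highest and the lowest value both came from IFNAR;RelB-DBDB. The 8 h to control ratio of this mitochondrial arginase was 1.35 in RelB-DBDB (0.845 to 2.24) and 3.23 in IFNAR;RelB-DBDB (1.51 to 6.89). The log2 change at 8 h was 0.75 ± 0.307 (SE, limma adjusted p = 0.117), which missed the threshold. Without the RelB-DBDB 8 h library, the 8 h value was 1.10 and passed (limma adjusted p = 0.0449). Arg2 overlaps Vti1b and the antisense gene Gm48780 on the opposite strand.

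Irg1, the source of itaconate, had the largest change of the 6 genes. Its levels were 81.8, 119, 1686 and 2629.7 CPM in the RelB-DBDB control, 1 h, 3 h and 8 h libraries. In IFNAR;RelB-DBDB they were 80.9, 159, 1025 and 1012 CPM. The controls of the genotypes were alike, with a ratio of 0.989 (0.901 to 1.09), and each later library lay above both controls. At 1 h the level was 1.46 times control in RelB-DBDB (1.32 to 1.61) and 1.97 times in IFNAR;RelB-DBDB (1.82 to 2.13), but the log2 change over both, 0.75 ± 0.381 (SE), did not pass (limma adjusted p = 1). At 3 h it was 20.6 times control in RelB-DBDB and 12.7 times in IFNAR;RelB-DBDB. The log2 change was 3.998 ± 0.381 at 3 h (SE, limma adjusted p = 0.00265) and 4.31 ± 0.381 at 8 h (limma adjusted p = 0.000905), the 16th highest of 12297 genes at either time. The 8 h to 3 h ratio was 1.56 in RelB-DBDB (1.53 to 1.59) and 0.987 in IFNAR;RelB-DBDB (0.947 to 1.03).

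By the limma test, 0 of the 6 genes changed at 1 h, when 0.0651% of all genes did (8 genes, all higher). None of the 6 had an unadjusted p under 0.05 at 1 h, against 177 of all genes. The 6 genes had a median log2 change of 0.09 at 1 h against −0.01 over all genes. At 3 h, 4 of the 6 were higher and 0 lower, where 7.51% of all genes changed and 3.64% were higher. At 8 h, 5 of the 6 were higher and 0 lower, where 21.6% of all genes changed and 6.51% were higher. The median of the 6 genes was 1.02 at 3 h and 1.15 at 8 h, beside −0.16 and −0.23 over all genes. TMM factors moved the all-gene median at 8 h to −0.01 and the all-gene calls there from 801 higher and 1853 lower to 1130 higher and 1199 lower, and called the same number of the 6 genes, 5. The 3 h calls of Nos2, Gch1 and Slc7a2 were lost when either control or either 3 h library was left out, and that of Irg1 when either 3 h library was left out. At 8 h, Nos2 and Irg1 passed in all 8 fits that each left out 1 library, while Gch1 and Slc7a2 were lost without either control and Ass1 without the RelB-DBDB control.

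**Figure D2:**
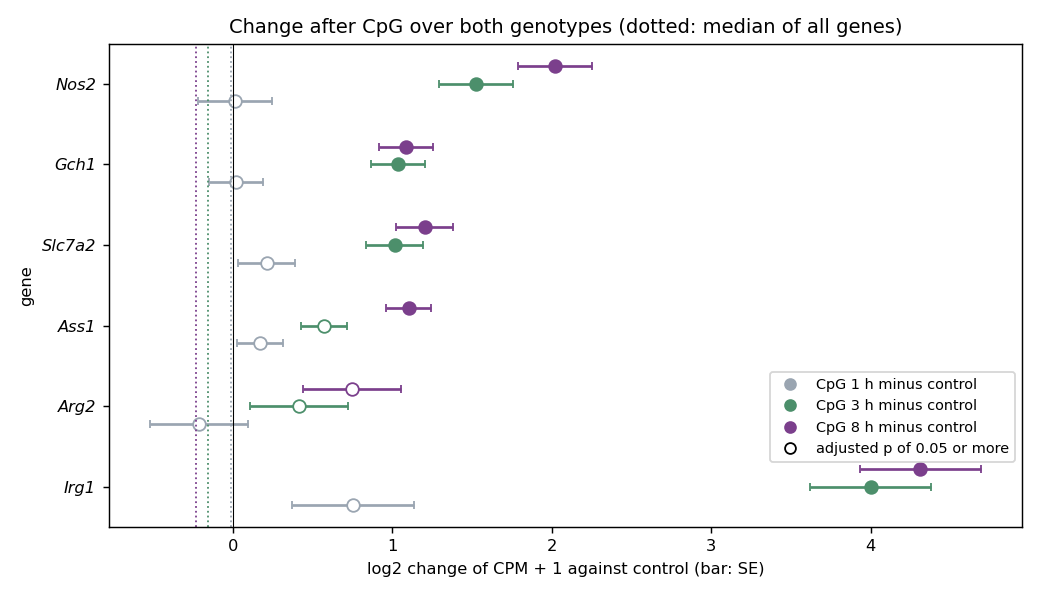
Log2 change of CPM + 1 against control over both genotypes (x axis) for each gene (y axis) at 1 h (grey), 3 h (green) and 8 h (purple); bars are SE, filled points passed the limma test and dotted lines give the median of all genes. Irg1 lies at 3.998 and 4.31, Nos2 at 1.53 and 2.02, and no 1 h point is filled.

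The sequence upstream of the transcription start is shown for Irg1, Gch1 and Ass1, which rose to different extents, to set the letters before each start beside the time courses. The sequences are from RefSeq on GRCm38.p6, read 5′ to 3′ on the gene's strand and ending at the base before the annotated start, and 3 of the 6 genes were matched. Capitals mark every match, on either strand, to an NF-κB motif (GGG and CC with any 5 bases between) or an interferon regulatory factor (IRF) motif (AANNGAAA). The Irg1 window is chr14:103046762-103046976 (plus strand), that of Gch1 is chr14:47189414-47189663 (minus strand) and that of Ass1 is chr2:31470020-31470206 (plus strand).
Irg1: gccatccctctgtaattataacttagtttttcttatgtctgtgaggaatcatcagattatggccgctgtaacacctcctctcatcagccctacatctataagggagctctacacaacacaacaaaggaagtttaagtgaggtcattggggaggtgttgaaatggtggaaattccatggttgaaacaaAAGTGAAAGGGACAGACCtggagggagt
Gch1: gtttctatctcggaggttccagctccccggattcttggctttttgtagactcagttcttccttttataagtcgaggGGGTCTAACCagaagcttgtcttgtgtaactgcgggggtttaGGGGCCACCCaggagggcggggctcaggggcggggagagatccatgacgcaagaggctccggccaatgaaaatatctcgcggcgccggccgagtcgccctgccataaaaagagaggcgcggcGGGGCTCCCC
Ass1: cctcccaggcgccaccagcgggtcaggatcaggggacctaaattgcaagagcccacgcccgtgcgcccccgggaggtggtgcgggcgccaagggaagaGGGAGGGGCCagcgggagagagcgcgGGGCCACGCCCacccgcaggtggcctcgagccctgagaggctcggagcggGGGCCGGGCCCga

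In Irg1 an IRF match began 28 bases before the start, and an NF-κB match followed it directly, with no overlap, 20 bases before the start. The IRF letters occur in 18.9% and the NF-κB letters in 40.4% of the 32851 promoters of the table in windows of the same length. Gch1 had NF-κB matches at 3 places and no IRF match, and such NF-κB letters occur in 45.8% of all windows of its length. Ass1 likewise had NF-κB matches at 3 places, counting those that overlap on opposite strands once, and no IRF match, with a share of 34.6% of all windows for the NF-κB letters. No match to AP-1 (TGANTCA) or to the interferon-γ element GAS (TTCNNNGAA) lay in the 3 windows. These are letter matches in a short window, and binding was not measured here.

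The question of the genotype comparison is how the induction of these genes differs where cells lack the type I interferon receptor. Nos2 and Slc7a2 were lower in the IFNAR;RelB-DBDB library of every condition, and the difference was present before CpG. Irg1 was at the same level in both controls and was lower in IFNAR;RelB-DBDB in the 3 h and 8 h libraries, although the late-phase test over all 8 libraries did not call this. Ass1 was not lower in any condition, except at 8 h with TMM or median-ratio factors, and Gch1 ratios lay between 0.684 and 0.867. In the additive limma model, 2 of the 6 genes were lower in IFNAR;RelB-DBDB and 0 higher, where 6.25% of all genes differed, 1.66% being lower and 4.59% higher. Both were called with TMM and median-ratio factors too. The median log2 difference of the 6 genes was −0.38, against 0.11 over all genes.

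The Nos2 level in IFNAR;RelB-DBDB was 0.612, 0.606 and 0.623 times that in RelB-DBDB in the control, 1 h and 3 h libraries. At 8 h it was 0.337 times (0.320 to 0.354), a 2.97-fold lower level. The ratio was thus nearly the same in 3 conditions, with overlapping intervals, and lower in the last. The log2 difference over the conditions was −0.92 ± 0.163 (SE, limma adjusted p = 0.0218). Leaving out either library of a condition takes that condition out of the genotype difference. Both such fits therefore give the same estimate and are not separate checks. Omitting the RelB-DBDB 8 h library gave −0.70 (limma adjusted p = 0.000161). The call was lost with no filter on low values (limma adjusted p = 0.0605) and in 6 of the 8 fits that left out 1 library, those without a control, 1 h or 3 h library, at a largest limma adjusted p of 0.109.

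For the carrier Slc7a2 the ratio of IFNAR;RelB-DBDB to RelB-DBDB was 0.606, 0.653, 0.843 and 0.522 in the control, 1 h, 3 h and 8 h libraries. The genotypes were closest at 3 h, and all 4 intervals lay below 1. The log2 difference was −0.63 ± 0.126 (SE, limma adjusted p = 0.0326) and was −0.53 without the RelB-DBDB 8 h library (limma adjusted p = 0.00567). As for Nos2, the call was lost with no filter (limma adjusted p = 0.0900) and without any of the 6 control, 1 h and 3 h libraries, with a largest limma adjusted p of 0.166. Arg1, the cytosolic arginase, had a similar early difference, with ratios of 0.601 in control and 0.571 at 1 h. Its ratio was 0.684 at 3 h and 0.926 at 8 h, and its log2 difference of −0.55 ± 0.133 (SE) missed the threshold (limma adjusted p = 0.0597).

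The Irg1 ratio of IFNAR;RelB-DBDB to RelB-DBDB changed with time, from 0.989 in control through 1.33 at 1 h (1.22 to 1.45) to 0.608 at 3 h (0.589 to 0.627) and 0.385 at 8 h (0.372 to 0.397). The 8 h level was 2.60-fold lower in IFNAR;RelB-DBDB. Averaged over the conditions, the log2 difference was −0.42 ± 0.269 (SE, limma adjusted p = 0.389). The late-phase term, which contrasts the genotype difference of the 3 h and 8 h libraries with that of the earlier ones (control and 1 h), was −1.25 ± 0.277 for Irg1 (SE, limma adjusted p = 0.555, unadjusted p = 0.00315). For Nos2 it was −0.41 ± 0.299 (limma adjusted p = 0.650). With 2 residual degrees of freedom, limma called 0 of the 6 genes and 0% of all genes for this term, while 2 of the 6 (Irg1 and Arg2) and 874 of all genes had an unadjusted p under 0.05. Leaving out 1 library left 1 residual degree of freedom and gave calls that depended on which library it was. For Irg1 the term was −0.92 without either 8 h library and −1.58 without either 3 h library (limma adjusted p at most 6.58e-06). For Nos2 it was 0.03026 and not called without either 8 h library, and −0.86 and called without either 3 h library (limma adjusted p at most 6.54e-08). The Slc7a2 term changed sign between called values, from 0.42 without either 8 h library (limma adjusted p at most 0.00592) to −0.27 without either 3 h library (limma adjusted p at most 0.0219). That of Arg2 was called without either 3 h library, at 0.94 (limma adjusted p at most 0.0400).

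Gch1 ratios were 0.831, 0.867, 0.684 and 0.772 in the control, 1 h, 3 h and 8 h libraries, and its log2 difference was −0.34 ± 0.118 (SE, limma adjusted p = 0.153). Ass1 ratios were 1.29, 1.14, 1.03 and 1.03, with intervals above 1 in control and at 1 h, and its log2 difference was 0.16 ± 0.101 (SE, limma adjusted p = 0.389). Ass1 thus began higher in IFNAR;RelB-DBDB and ended level. All 4 Arg2 intervals included 1, and its log2 difference was −0.05 ± 0.217 (SE, limma adjusted p = 0.903). With TMM factors the 8 h ratios were lower, at 0.254 for Nos2, 0.290 for Irg1, 0.394 for Slc7a2, 0.582 for Gch1 and 0.779 for Ass1, so that the 8 h direction of Ass1 turned. The median-ratio factors gave 0.263, 0.300, 0.407, 0.602 and 0.806 in the same order. The all-gene split of genotype calls also moved, from 565 higher and 204 lower to 439 higher and 332 lower.

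**Figure D3:**
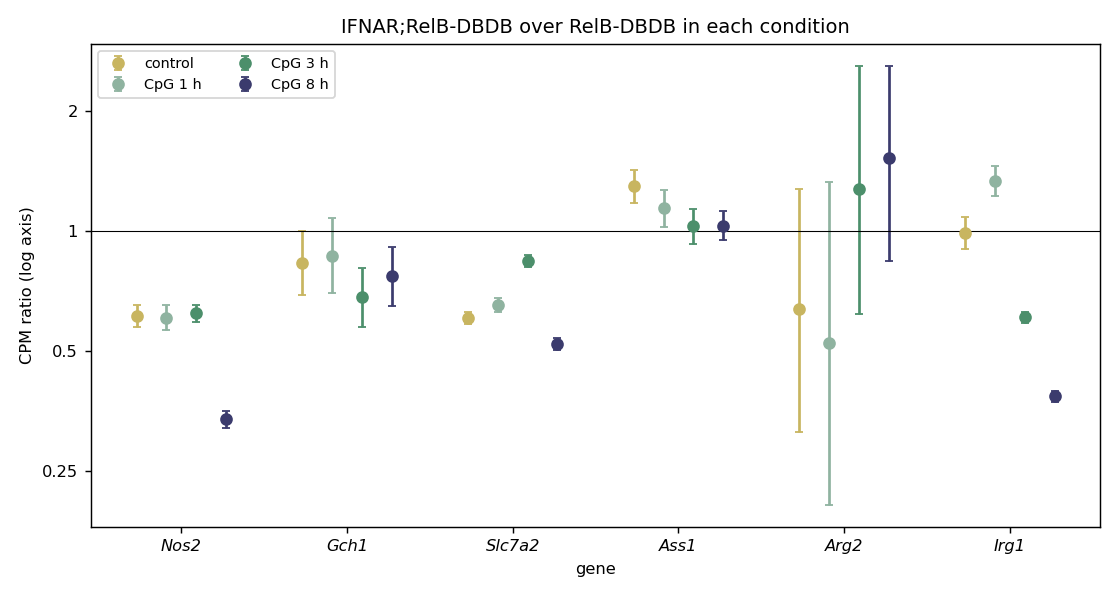
Ratio of CPM in IFNAR;RelB-DBDB to RelB-DBDB (log axis) for each gene in the control (yellow), 1 h (light green), 3 h (green) and 8 h (dark blue) libraries, with 95% counting intervals. Nos2 stays near 0.61 until 3 h and is 0.337 at 8 h, while Irg1 moves from 0.989 to 0.385.

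Taking a difference of at least 1.5-fold between single libraries on the CPM + 1 scale, with no test, 3 of the 6 genes were lower in IFNAR;RelB-DBDB at 8 h (Nos2, Slc7a2 and Irg1), where 9.09% of all genes were. At 3 h, Nos2 and Irg1 were past this fold, where 6.11% of all genes were. Nos2 and Slc7a2 passed it in control (3.74% of all genes) and at 1 h (3.9% of all genes). None of the 6 was higher by this fold in any condition, although 8.34% of all genes were in control, 10.4% at 1 h, 7.81% at 3 h and 31.8% at 8 h. Nos2 and Irg1 were higher at 8 h than at 3 h by this fold in RelB-DBDB (9.43% of all genes) and none of the 6 was in IFNAR;RelB-DBDB (9.82% of all genes). These counts and shares use CPM without scaling factors. In RelB-DBDB the 8 h to 3 h ratios of Slc7a2 and Ass1 also passed this fold with TMM (1.80 and 1.80) and median-ratio factors (1.75 and 1.74). So did the lower 8 h level of Gch1 in IFNAR;RelB-DBDB, at ratios of 0.582 and 0.602. The shares of all genes were not worked out with these factors. Some markers of other cells moved with genotype. The 4 plasmacytoid dendritic cell markers were Siglech, Bst2, Ccr9 and Tcf4. Their summed level was 109, 103, 159 and 307 CPM in the RelB-DBDB control, 1 h, 3 h and 8 h libraries and 102, 90.3, 117 and 115 CPM in those of IFNAR;RelB-DBDB. It was thus highest in the RelB-DBDB 8 h library, as were Nos2, Slc7a2 and Irg1. The sum rose within RelB-DBDB over the hours of CpG. Whether this came from more such cells or from more marker RNA per cell was not tested. Siglech was at 0 in 6 of the 8 libraries, and of the 3 tested markers 1 was called higher at 8 h and 0 between genotypes. Tcf4, which is also among the 5 genes most correlated with Nos2, made up 137 of the 307 CPM in the RelB-DBDB 8 h library. The 8 dendritic cell markers summed to between 7410 and 11562 CPM in RelB-DBDB and between 11389 and 12894 CPM in IFNAR;RelB-DBDB, with 2 of 8 called higher in the latter. The summed level of 4 T and NK cell markers was 4.22 to 5.71 CPM in RelB-DBDB and 22.6 to 31.0 CPM in IFNAR;RelB-DBDB. That of the 3 eosinophil markers in the table was 4.97 to 12.6 and 24.6 to 32.9 CPM, and that of 6 mast cell and basophil markers 7.33 to 17.5 and 19.3 to 28.4 CPM. Of the tested markers, 2 of 2, 3 of 3 and 4 of 6 were higher in IFNAR;RelB-DBDB. The summed macrophage and monocyte markers overlapped, spanning 487 to 577 CPM in the RelB-DBDB libraries and 444 to 580 CPM in the IFNAR;RelB-DBDB libraries, with 1 of 7 higher and 1 lower. The part of these cells in the genotype differences was not tested.

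Arg1 and Nos2 compete for arginine, and their relative level turned over during the response. Arg1, which IL-4 induces in myeloid cells, stood at 2675, 2902, 1395 and 434 CPM in the RelB-DBDB control, 1 h, 3 h and 8 h libraries. The IFNAR;RelB-DBDB levels were 1607, 1658, 954 and 402 CPM. The 3 h and 8 h libraries of each genotype lay below its control and 1 h libraries. The log2 change was −0.85 ± 0.188 at 3 h (SE, limma adjusted p = 0.0420), lost in 6 of the 8 fits that left out 1 library (those without a control, 1 h or 3 h library) and with no filter. At 8 h it was −2.31 ± 0.188 (limma adjusted p = 0.000696), which passed in every such fit. Per kilobase of exon, the ratio of the Arg1 to the Nos2 level was 23.2, 24.9, 4.23 and 0.689 in RelB-DBDB, and 22.8, 23.4, 4.64 and 1.89 in IFNAR;RelB-DBDB. In RelB-DBDB alone the synthase exceeded the arginase at 8 h. Arg1 per kilobase was also far above Arg2 in all libraries, from 59.8 times in IFNAR;RelB-DBDB at 8 h to 1138 times in the same genotype at 1 h.

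Paired carriers and enzymes of the pathway also differed in course. Slc7a1, the constitutive arginine carrier, was lower per kilobase than Slc7a2 in every library. The ratio of Slc7a2 to Slc7a1 per kilobase was 7.44, 8.44, 17.8 and 48.0 in the RelB-DBDB control, 1 h, 3 h and 8 h libraries, and 6.30, 6.98, 16.4 and 16.3 in IFNAR;RelB-DBDB. Asl completes the return of citrulline to arginine after Ass1. The ratio of Ass1 to Asl per kilobase was 2.07, 2.80, 4.04 and 11.2 in RelB-DBDB and 2.51, 2.75, 3.76 and 5.37 in IFNAR;RelB-DBDB. The log2 change at 8 h was −0.81 ± 0.257 for Slc7a1 (SE, limma adjusted p = 0.0614) and −0.64 ± 0.254 for Asl (SE, limma adjusted p = 0.108), neither past the threshold. Without the RelB-DBDB 8 h library they were −0.35 and −0.17, and omitting its IFNAR;RelB-DBDB counterpart gave −1.28 and −1.10.

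**Figure D4:**
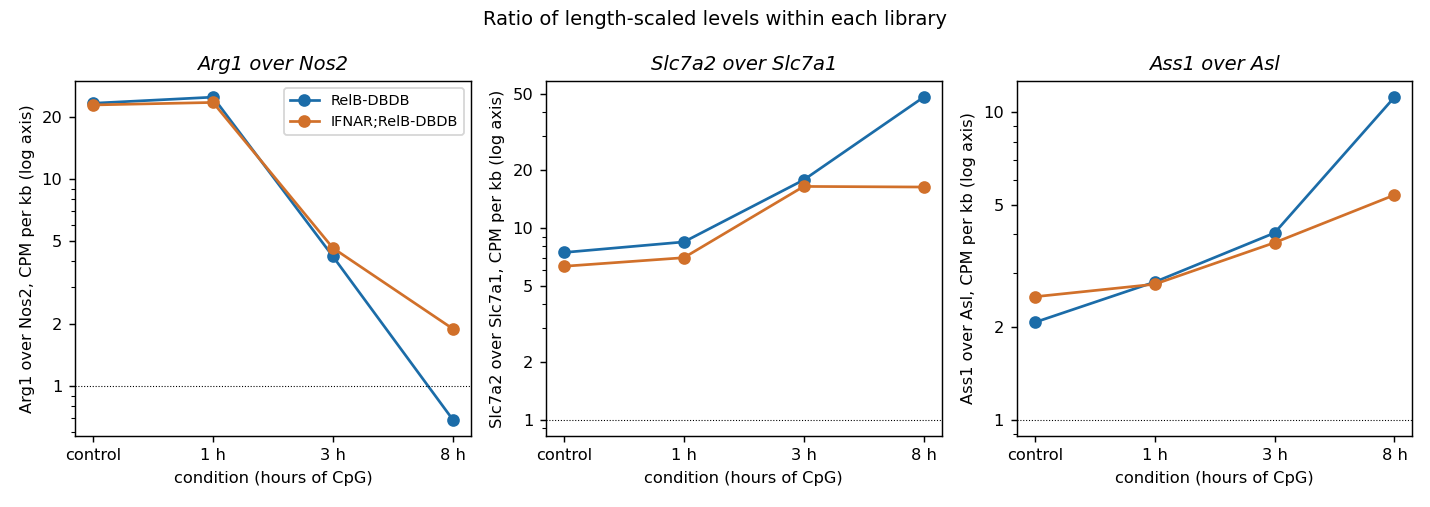
Ratio of levels per kilobase of exon (log axes) within each library by condition for Arg1 over Nos2, Slc7a2 over Slc7a1 and Ass1 over Asl, with RelB-DBDB in blue and IFNAR;RelB-DBDB in orange; points are single libraries and the dotted line marks equal levels. Arg1 over Nos2 falls from 23.2 to 0.689 in RelB-DBDB and from 22.8 to 1.89 in IFNAR;RelB-DBDB.

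Per kilobase of exon, the order of the 6 genes in the RelB-DBDB control was Slc7a2, Nos2, Irg1, Ass1, Gch1 and Arg2, of which the neighbours Irg1 (31.2 CPM per kb) and Ass1 (28.3) had overlapping intervals. At 8 h it was Irg1 (1003 CPM per kb), Nos2 (283), Slc7a2 (186), Ass1 (68.4), Gch1 (8.26) and Arg2 (1.98), with no overlap between neighbours. In the IFNAR;RelB-DBDB control the order was Slc7a2 (45.3), Ass1 (36.6), Nos2 (31.6), Irg1 (30.8), Gch1 (3.05) and Arg2 (0.935), where Nos2 and Irg1 overlapped. At 8 h in this genotype Irg1 led at 386 CPM per kb, ahead of Slc7a2 (96.8) and Nos2 (95.4), which overlapped, and of Ass1 (70.6), Gch1 (6.38) and Arg2 (3.02). Irg1 thus passed from the middle of the order to its top in both genotypes, and Gch1 and Arg2 were the lowest in each library.

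Over the 8 libraries, the log2 levels of the 6 genes correlated in pairs with Pearson's r from 0.666 (Slc7a2 and Ass1) to 0.978 (Nos2 and Slc7a2), as a description that rests on the shared time course. Among 4455 genes with a mean of at least 5 CPM and a log2 range of at least 1, those most like Nos2 were Cd36 (r = 0.991), Cacna1d, Blnk, Sppl2a and Tcf4. Cd36, a scavenger receptor, stood at 882, 857, 1206 and 1512 CPM in the RelB-DBDB and 678, 696, 955 and 1023 CPM in the IFNAR;RelB-DBDB control, 1 h, 3 h and 8 h libraries. The list for Slc7a2 was headed by Nos2 itself, followed by Cd36 (r = 0.977), Msr1, Sppl2a and Procr. Gch1 was closest to Sh3bp5 (r = 0.996), Il1f9, Helz2, Tma16 and Mitf. Irg1 was closest to Samsn1 (r = 0.993), Ell2, Zeb1, Tma16 and Tnfsf15, the last of which encodes a cytokine of the TNF family. Ass1 was closest to Osbpl3 (r = 0.987), Tlr1, Ccnd2, Zfhx2 and 4930503L19Rik. Ccnd2, a cyclin, had levels of 1009.7, 1065, 1726 and 2990.3 CPM over the RelB-DBDB course and of 1039.8, 1187, 1796 and 3075 CPM in IFNAR;RelB-DBDB, without the genotype gap of Nos2. For the low gene Arg2 they were Tspan3 (r = 0.966), Spred2, Pilra, Cd302 and Mcemp1.

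Around these genes, more members of the pathways fell than rose by 8 h. Of 60 further genes listed for tetrahydrobiopterin, arginine transport, the return of citrulline, the arginases and polyamines, and the citric acid cycle, 50 passed the filter. By limma, 0 of the 50 changed at 1 h, with 0 at an unadjusted p under 0.05, where 0.0651% of all genes changed. At 3 h 0 rose and 3 fell, where 3.64% of all genes rose and 3.87% fell. The 3 were all from the arginase and polyamine list: Arg1, Aldh18a1 (proline and ornithine synthesis, −1.14 on the log2 scale) and Sat1 (polyamine acetylation, −0.73). Each of these 3 h calls was kept in 2 of the 8 fits that left out 1 library, those without an 8 h library. At 8 h, 1 rose and 16 fell, where 21.6% of all genes changed and 15.1% fell. The median of the 50 genes at 8 h was −0.60, against −0.23 over all genes. The median was −0.32 without the RelB-DBDB 8 h library, against −0.12 over all genes in the same fit. With TMM factors 9 of the 17 called genes passed, and the median was −0.37 against −0.01 over all genes. Far fewer of the 50 were called when any single control, 1 h or 3 h library was left out. More were called on omitting that of IFNAR;RelB-DBDB at 8 h. In each of these fits the calls over all genes moved in the same direction.

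The gene that rose was Slc3a2, the shared heavy chain of several amino acid carriers, by 0.57 ± 0.149 at 8 h (SE, limma adjusted p = 0.0380). Among the arginase and polyamine genes 6 of 12 fell, namely Arg1, Aldh18a1 (−1.28), Pycr1 (proline synthesis; −1.16), Sat1 (−1.07), Oaz2 (antizyme; −0.91) and Odc1 (ornithine decarboxylase; −0.65). Odc1 makes the first polyamine from the ornithine that arginases release. Pycr1 was close to the detection limit, with 2.28 CPM in the RelB-DBDB control and 0.457 CPM at 8 h. The other genotype had 3.01 CPM in control and 0.808 CPM at 8 h, the latter being 3 reads. In the citric acid cycle list 8 of 23 fell, the largest change being that of Clybl, which in human mitochondria takes part in the breakdown of itaconate through citramalyl-CoA. Clybl had levels of 17.1, 17.9, 11.9 and 3.87 CPM over the RelB-DBDB course and 13.0, 13.2, 8.74 and 3.77 CPM in IFNAR;RelB-DBDB, with no overlap between the 8 h libraries and the rest. Its log2 change at 8 h was −1.73 ± 0.207 (SE, limma adjusted p = 0.00282). Idh2 (−0.89), Mdh2 (−0.73), Idh1 (−0.72), Idh3g (−0.66) and Idh3b (−0.64), all dehydrogenases of isocitrate or malate, came next. Of the genes named here, Odc1, Mdh2, Idh3g and Idh3b were not called with TMM or median-ratio factors, and Slc3a2, Oaz2, Mdh2 and Idh3g were not called with no filter. Without the RelB-DBDB 8 h library the values of Mdh2 and Idh3g were −0.35 and −0.44. The 4 succinate dehydrogenase genes, whose enzyme itaconate inhibits, did not pass, with log2 changes of −0.28 (Sdha) to −1.06 (Sdhd), a group singled out after its values were seen. Of the 5 tetrahydrobiopterin genes beside Gch1, Qdpr (recycling of the cofactor) fell by 1.07 on the log2 scale, and of the 4 citrulline and methylarginine genes Ddah2 fell by 0.96. Both calls were lost with TMM factors, with median-ratio factors, with no filter and in 6 of the 8 fits that left out 1 library, and without the RelB-DBDB 8 h library the value of Qdpr was −0.49. Ddah2 was low in all libraries, with 2.85 CPM in the RelB-DBDB control and 0.806 CPM at 8 h. The other genotype had 2.67 CPM in control and 1.08 CPM at 8 h. Between genotypes limma called 0 of the 50, against 6.25% of all genes, and 1, Arg1, with TMM factors. An unadjusted p under 0.05 was found for 12 of the 50 and for 2759 of all 12297 genes. In the late phase limma called 0 of the 50. There 2 of the 50 and 874 of all 12297 genes had an unadjusted p under 0.05.

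**Figure D5:**
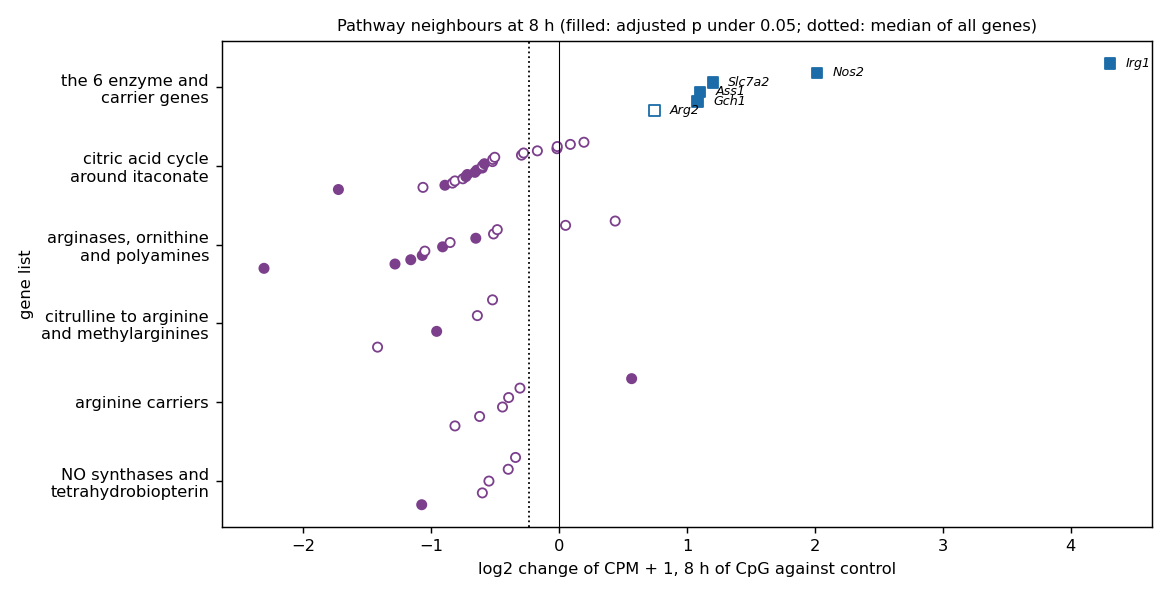
Log2 change of CPM + 1 at 8 h of CpG against control (x axis) for the 6 genes (squares) and the other tested genes of each pathway list (circles; y axis by list); filled symbols passed the limma test and the dotted line is the median of all genes at −0.23. The 6 genes lie to the right of 0, from 0.75 to 4.31, and most of the other genes to the left.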

How the data were processed

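RNA from 8 BMDC samples was sequenced with a KAPA stranded mRNA kit and single-end reads of 50 bases, per the labels' protocols. The deposited table holds a signal per gene equal to CPM + 1, of which 1 was subtracted. The values minus 1 were whole multiples of 1 read to within 0.01 read, from which reads per library (3711818 to 37221530) were worked back for exact Poisson intervals that cover counting error only. Of 27178 lines, 2161 named no gene (0.0737% to 0.131% of reads) and were left out of the tests, and 16 columns of values were not used. Cutadapt, edgeR and mm10 appear in the submitters' processing notes, while the aligner and the counter go unnamed in the sources used here.

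Genes reaching 1 CPM in 2 or more libraries (12297) were fitted on log2(CPM + 1), which understates changes of low genes, with limma 3.58.1 in R 4.3.3 (trended variance, Benjamini-Hochberg over all genes, threshold 0.05). The additive model of genotype and condition left 3 residual degrees of freedom and the late-phase model 2. Nothing in the labels says that libraries came from separate animals, so p-values measure only the spread between these libraries. A run on simulated data with planted 3 h changes looked only at the 3 h comparison with control. The genotype, late-phase and left-out fits were not checked in this way. The members and gene lists were chosen with earlier results of these data known. Named genes are the 6 members, Arg1, Slc7a1, Asl, Relb and Ifnar1, up to 6 called genes per pathway list and comparison by size of change, and the 5 genes most correlated with each member. Alternatives were another pseudocount, no filter, TMM or median-ratio factors and leaving out each library. For the genotype and late-phase terms, leaving out either library of a condition gives the same estimate, so these fits are not all separate checks.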

Additional observations from a re-analysis of the deposited data

Results flagged for a closer look

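A few steps ran in opposite directions in the RelB-DBDB and IFNAR;RelB-DBDB libraries, 1 library each, and the difference between the genotypes was not tested. The log2 difference of Slc7a2 CPM between 8 h and 3 h was 0.54 in RelB-DBDB and −0.16 in IFNAR;RelB-DBDB. For Irg1 the same step was 0.64 in RelB-DBDB and −0.019 in IFNAR;RelB-DBDB, where its counting interval included no change. For Gch1 it was −0.036 in RelB-DBDB and 0.13 in IFNAR;RelB-DBDB, and its step from control to 1 h was −0.012 in RelB-DBDB and 0.047 in IFNAR;RelB-DBDB, all with intervals that included no change. The Gch1 step of RelB-DBDB from 3 h to 8 h turned to a ratio of 1.21 with TMM factors.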

How the results depend on the processing

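The number of the 6 genes called kept within 1.5 times its value with a pseudocount of 5 CPM, TMM factors or median-ratio factors in all 5 comparisons. With no filter on low values it was 0 instead of 2 between genotypes, and the other pathway genes called were 1 instead of 3 at 3 h and 11 instead of 17 at 8 h. TMM and median-ratio factors each called 9 other pathway genes at 8 h and 1 between genotypes, instead of 17 and 0. Median-ratio factors gave 1232 higher and 1110 lower calls over all genes at 8 h and 450 higher and 327 lower between genotypes. TMM factors moved the all-gene median at 3 h from −0.16 to −0.05 and that of the genotype difference from 0.11 to −0.02.

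Leaving out 1 library gave ranges of 0 to 0 of the 6 genes at 1 h, 0 to 5 at 3 h, 2 to 6 at 8 h, 0 to 2 between genotypes and 0 to 4 in the late phase. For the other pathway genes the ranges were 0 to 0, 0 to 21, 1 to 44, 0 to 7 and 0 to 31. Over all genes they were 5 to 35, 12 to 4313, 333 to 7037, 128 to 2044 and 69 to 5646, and with no filter 478 genes were called at 3 h, 1629 at 8 h and 413 between genotypes. The cause of these moves was not tested.

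Directions turned for some values that the fit of all 8 libraries did not call. The 8 h change of Ifnar1 was 0.071 with TMM and 0.091 with median-ratio factors, the genotype difference of Arg2 was 0.00392 with a pseudocount of 5, and the late-phase term of Slc7a2 was −0.069 and −0.046 with the same factors. Leaving out 1 library, the 1 h changes ranged from −0.13 to 0.16 for Nos2, −0.077 to 0.11 for Gch1, −0.53 to 0.11 for Arg2, −0.090 to 0.25 for Arg1, −0.22 to 0.31 for Slc7a1, −0.30 to 0.079 for Asl, −0.30 to 0.060 for Relb and −0.15 to 0.34 for Ifnar1. The 8 h change of Relb ranged from −0.29 to 0.68, and the genotype difference from −0.23 to 0.11 for Arg2 and −0.32 to 0.045 for Slc7a1. The late-phase term ranged from −0.86 to 0.030 for Nos2, −0.27 to 0.42 for Slc7a2, −0.0095 to 0.93 for Asl and −0.070 to 0.95 for Relb. Of these, the Relb 8 h values at both ends of the range and the Slc7a1 genotype difference of −0.32 were called when an 8 h library was left out, and the late-phase terms furthest from 0 were called when a 3 h or 8 h library was left out. No paired analysis was possible because the labels carry no replicate numbers, beyond the condition term of the additive model, which already sets the genotypes side by side within each condition. The planned edgeR test on reads was not run. Arg2 rested on 11 to 105 reads in a library, and the part of depth in its result was not tested.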
